A study of Homo sapiens with 18 samples.

Results

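The 29 genes described here make cholesterol or set how much of it a cell makes. They were taken as a named list, chosen with earlier results of these data known. The list holds 8 genes of the mevalonate and isoprenoid steps and 11 of the squalene and sterol steps. It also holds 8 genes of the control of sterol regulatory element binding proteins (SREBPs), and MYLIP and STARD4, which act in receptor turnover and sterol transport. A probe set on the array was annotated to 28 of the 29, on 32 of the 21214 probe sets that carry a gene symbol. FDFT1, the squalene synthase gene, had no annotated probe set and was not analysed here. Each gene was read from 1 probe set, and HSD17B7 from a probe set annotated also to the pseudogene HSD17B7P2.

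Cells make cholesterol from acetyl-CoA through mevalonate, isoprenoid pyrophosphates, squalene and lanosterol. SREBF1 and SREBF2 encode the SREBP transcription factors, which are made as membrane proteins of the endoplasmic reticulum. When membrane sterol is low, SCAP escorts them to the Golgi, where the proteases encoded by MBTPS1 and MBTPS2 release the active factor, and most genes of the synthesis pathway are its targets. When sterol is high, INSIG proteins hold SCAP in the endoplasmic reticulum. Adrenocortical cells turn cholesterol into steroid hormones, so they use these genes both for membranes and for hormone precursor.

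The study used H295R cells, an established human adrenocortical carcinoma line, grown to 70% confluence and kept without serum for 24 h. Cells carried, stably and without an inducible switch, either the empty pcDNA4 vector (called control cells below) or the same vector with the glucocorticoid receptor isoform GRα (GRα cells). Each line received ethanol as vehicle, 100 nM of the glucocorticoid receptor agonist dexamethasone or 100 nM of the receptor antagonist RU486 for 6 h, and total RNA was measured on expression arrays. Of 18 arrays described, 17 had values: 3 in each of 5 groups, with replicates lettered A to C, and 2, B and C, for GRα cells with RU486. Both kinds of cell were H295R under the same vector and serum-free conditions, and each construct was represented by 1 stable line. A difference between the lines therefore cannot be told apart from a difference between any stable derivatives. Nothing in the labels names separate cultures behind the biological replicates, so the p-values reflect only how far these samples spread, and that spread may be technical.

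Array medians lay between 6.28 and 6.35 on the log2 scale, no array pair was identical, and the number of arrays limits the precision. Correlations over all probe sets were 0.987 to 0.997 within a line and 0.973 to 0.978 between lines. NR3C1, the receptor gene on the vector, had a log2 level of 7.94 ± 0.04 in GRα cells and 7.36 ± 0.07 in control cells given vehicle (SD, n = 3 each), 1.5-fold higher (limma adjusted p = 1.57e-06), and its lowest GRα array, 7.90, was above its highest control array, 7.46. Dexamethasone raised ZBTB16, a glucocorticoid-induced transcription factor, 5.63-fold in GRα cells and 2.67-fold in control cells (limma adjusted p = 1.93e-11 and 8.59e-08). The mean level of 12 adrenocortical markers was 7.93 to 8.06 in control arrays and 7.53 to 7.68 in GRα arrays. In vehicle 7 of the 12 were called lower in GRα cells, among them HSD3B2 (-1.59), SULT2A1 (-1.09), STAR (-0.91) and GATA6 (-0.55), and 1, CYP17A1, was higher (0.22). Of all probe sets, 17.9% were called lower and 14.9% higher. CYP11A1, which makes pregnenolone from cholesterol, was not called (0.09) and stood at the 96.3rd percentile of all probe sets. Markers of other cell types had mean levels per array of 5.55 to 5.94 (5 chromaffin), 5.32 to 5.68 (6 fibroblast), 5.22 to 5.51 (6 endothelial), 5.00 to 5.26 (5 leukocyte) and 4.85 to 5.06 (6 hepatocyte). Of these, CHGA (0.54), COL1A1 (0.53), CDH5 (0.28) and KDR (0.25) were called higher in GRα cells in vehicle, and 0 were called lower. They were 1 of 5 chromaffin, 1 of 6 fibroblast and 2 of 6 endothelial markers, with 0 of 5 leukocyte and 0 of 6 hepatocyte markers. These counts stand beside 14.9% of all probe sets called higher. The fibroblast markers LUM and DCN stood at the 0.707 and 3.07 percentiles. Many adrenocortical markers thus differed with the line, as the sterol genes below did, and their part in those results was not tested. In vehicle the adrenocortical list had a median difference of -0.237, and the lists of other cell types had medians of 0.026 to 0.152. Array B of vehicle-treated GRα cells stood apart. It had the lowest of the limma array weights, 0.191, and calls on the 28 genes that change without it are given both ways.

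The promoter windows below are shown because many of these genes hold the same short motifs upstream of their start sites, and because most of them differed in the same direction between the lines. Each is the 150 bases before the annotated start in RefSeq (GRCh38.p14), 5′ to 3′ on the gene's strand. Capitals mark CCAAT, the box bound by NF-Y, on either strand (ATTGG where it lies on the other strand). SREBF2 is shown as the gene of the main activator of the pathway, the next 4 genes are sterol enzymes that were much lower in GRα cells, and PMVK is a pathway gene that was not called.

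SREBF2 (chr22:41832955-41833104, plus strand): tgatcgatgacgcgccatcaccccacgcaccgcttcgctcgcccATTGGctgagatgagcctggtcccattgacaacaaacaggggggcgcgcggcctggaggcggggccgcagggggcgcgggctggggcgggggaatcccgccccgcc

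LSS (chr21:46228775-46228924, minus strand): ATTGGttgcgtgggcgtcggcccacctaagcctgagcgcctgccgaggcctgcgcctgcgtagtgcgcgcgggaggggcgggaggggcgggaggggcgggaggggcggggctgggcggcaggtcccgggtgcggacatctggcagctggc

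HSD17B7 (chr1:162790552-162790701, plus strand): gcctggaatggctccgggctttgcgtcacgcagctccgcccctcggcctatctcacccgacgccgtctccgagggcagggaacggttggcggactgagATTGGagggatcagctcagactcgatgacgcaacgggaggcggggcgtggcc

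DHCR7 (chr11:71448394-71448543, minus strand): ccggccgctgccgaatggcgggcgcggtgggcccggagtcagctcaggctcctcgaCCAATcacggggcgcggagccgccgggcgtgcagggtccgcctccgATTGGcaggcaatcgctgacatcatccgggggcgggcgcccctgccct

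NSDHL (chrX:152830913-152831062, plus strand): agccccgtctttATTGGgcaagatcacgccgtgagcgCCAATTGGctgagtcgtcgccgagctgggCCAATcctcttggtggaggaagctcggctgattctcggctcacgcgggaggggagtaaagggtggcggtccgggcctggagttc

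PMVK (chr1:154936720-154936869, minus strand): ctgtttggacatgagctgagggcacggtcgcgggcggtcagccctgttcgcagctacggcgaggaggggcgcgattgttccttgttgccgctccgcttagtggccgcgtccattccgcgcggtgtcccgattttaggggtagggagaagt

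The search covered the 250 bases before the start, on both strands, for 25 genes of the list with an entry, against 27305 promoters in all. ACAT2, SQLE, ERLIN1 and FDFT1 had no entry. CCAAT was in 16 of 25 (64%), against 33% of all promoters and 34.7% of promoters of genes on the array. The GC box of Sp1, GGGCGG, was in 21 (84%), against 42.3% and 56.5%. Of the 15 windows of genes called lower in GRα cells under all 3 treatments, 12 held CCAAT, as did 4 of the other 10. Those 4, MYLIP, TM7SF2, SREBF2 and EBP, were themselves called lower under 1 or 2 treatments. GGGCGG was in 14 of the 15 and in 7 of the other 10. IDI1, CYP51A1 and SREBF1 were called lower under all 3 treatments and held no CCAAT. Such matches are descriptions of letters, not of binding, and any part of these motifs in the line differences was not tested.

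The first question the design poses is how the lines differ with the same treatment. In vehicle, 21 of the 28 measured genes were lower in GRα cells, 1 was higher and 6 were not called (limma, Benjamini-Hochberg adjusted p under 0.05 over all probe sets with a symbol). Over all probe sets 17.9% were called lower and 14.9% higher, and the median difference was -0.490 on the log2 scale for the 28 genes against 0.009 for all probe sets. With dexamethasone, 17 were lower and 1 was higher (17% and 15.9% of all probe sets), with a median of -0.457 against -0.017. With RU486, 18 were lower and 1 was higher (15.6% and 13.2%), with a median of -0.407 against -0.010. These comparisons contrast different arrays of the same pair of lines, and 1 estimate of the spread from all 17 arrays enters each test. Arrays measure RNA from whole cultures, so fewer expressing cells and less RNA per cell cannot be told apart.

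Across treatments, 16 of the 28 genes were called lower in GRα cells all 3 times, as were 11.8% of all probe sets, and 1, SQLE, was called higher all 3 times, against 10.2%. Another 6 genes were called under 1 or 2 treatments, and 5 under none. The sign of the difference was negative under all 3 treatments for 24 genes and positive for the other 4. In vehicle, dexamethasone and RU486, the arrays of the lines did not overlap for 22, 21 and 23 genes that were lower in GRα cells (21.2%, 24.2% and 29.4% of all probe sets) and for 2, 2 and 3 that were higher (18.9%, 21.3% and 25.4%). For 19 genes every GRα array was below every control array of the same treatment, in each of the 3 treatments, as was so for 15% of all probe sets. The line difference of a single gene moved little between treatments: its range over the 3 had a median of 0.11 log2 units and was under 0.2 for 25 of the 28.

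**Figure D1:**
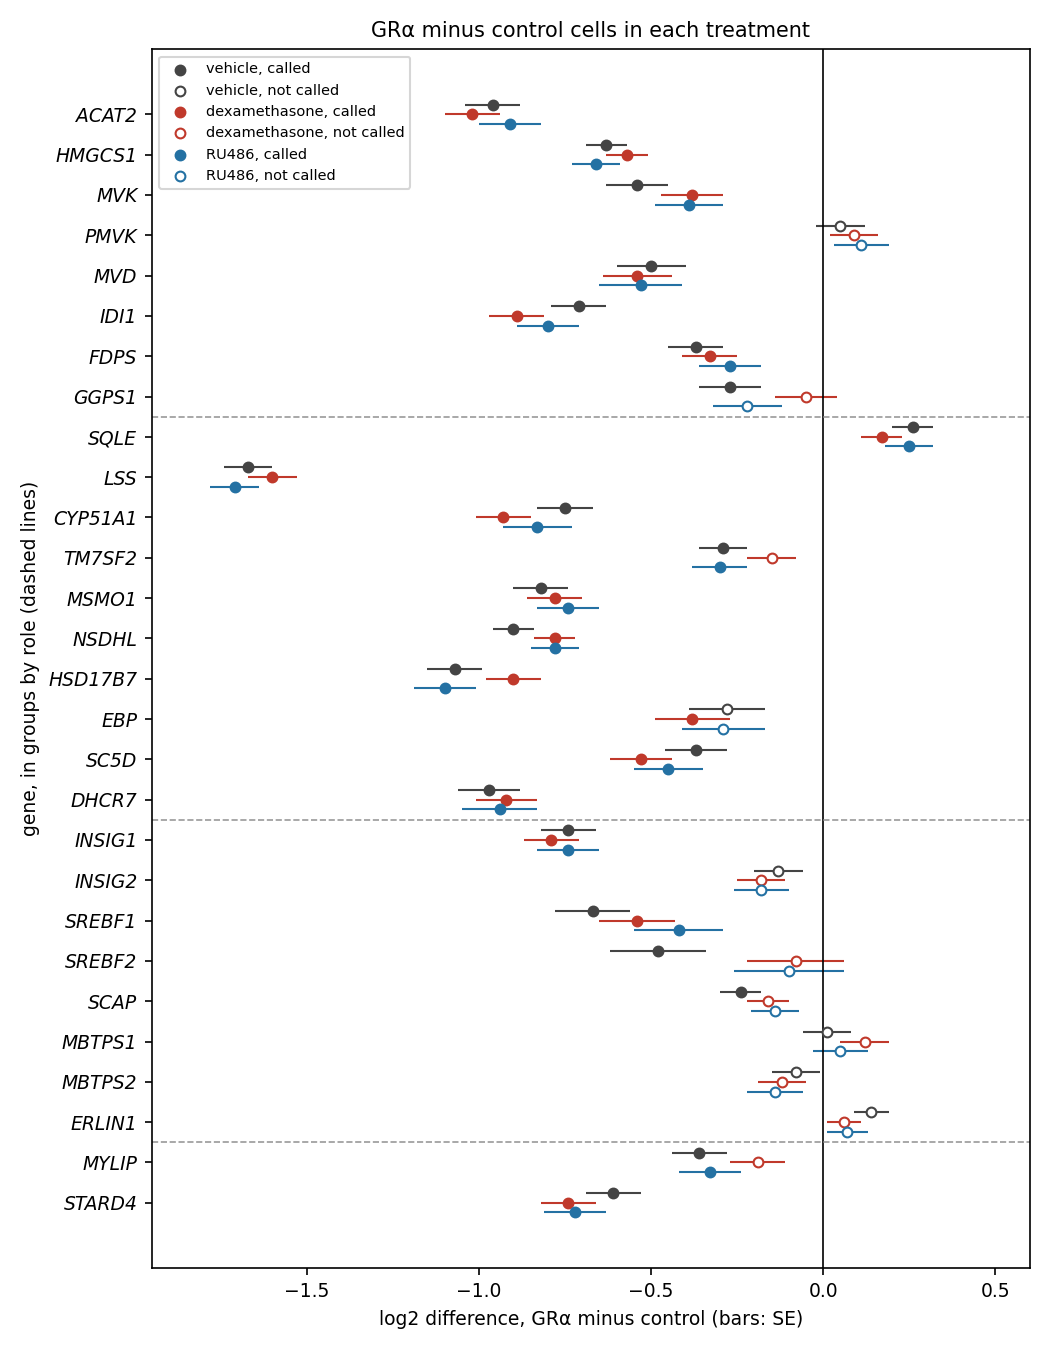
Log2 difference, GRα minus control cells, for each of the 28 measured genes (rows, grouped by role with dashed lines) in vehicle, dexamethasone and RU486; points are fitted differences, bars 1 SE, and filled points were called. Most points of the synthesis enzymes lie between -0.3 and -1.1, LSS lies furthest left at -1.60 to -1.71, and SQLE lies to the right of 0.

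The enzymes of the mevalonate and isoprenoid steps were lower in GRα cells for 7 of 8 genes in vehicle and for 6 of 8 with each drug. HMGCS1, which condenses acetoacetyl-CoA with acetyl-CoA, had log2 values of 11.88, 11.74 and 11.83 in control vehicle arrays A, B and C and of 11.16, 11.14 and 11.25 in GRα vehicle arrays. With dexamethasone its values were 11.93, 11.84 and 11.88 in control cells and 11.33, 11.36 and 11.27 in GRα cells, and with RU486 they were 11.81, 11.78 and 11.91 in control cells against 11.10 and 11.25 in GRα arrays B and C. No GRα array reached a control array under any treatment. In vehicle HMGCS1 was 1.55-fold lower (-0.63 ± 0.06, log2 ± SE, limma adjusted p = 6.06e-07). ACAT2, a cytosolic thiolase that makes acetoacetyl-CoA, had the largest difference of this group, at -0.96 ± 0.08 in vehicle (1.95-fold lower, limma adjusted p = 6.05e-08), -1.02 with dexamethasone and -0.91 with RU486.

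Further along, MVK, the mevalonate kinase gene, differed by -0.54 ± 0.09 and MVD, which makes isopentenyl pyrophosphate, by -0.50 ± 0.10 in vehicle. IDI1, which isomerises that product, differed by -0.71 in vehicle, -0.89 with dexamethasone and -0.80 with RU486. FDPS, the farnesyl pyrophosphate synthase gene, differed by -0.37, -0.33 and -0.27, all called. Its call with RU486 (limma adjusted p = 0.0263) was lost without RU486 array A or C of control cells or array B or C of GRα cells, with adjusted p between 0.0782 and 0.122. Another 2 probe sets shared by FDPS and FDPSP2 differed by -0.24 and -0.27 in vehicle (limma adjusted p = 0.0553 and 0.0224), by -0.27 and -0.26 with dexamethasone (0.0333 and 0.0285) and by -0.24 and -0.20 with RU486, not called (0.0981 and 0.138).

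PMVK, the phosphomevalonate kinase gene, was the exception of this group. Its vehicle values were 7.34, 7.35 and 7.44 in control cells and 7.34, 7.46 and 7.46 in GRα cells. With dexamethasone they were 7.44, 7.30 and 7.41 against 7.46, 7.61 and 7.37, and with RU486 7.31, 7.21 and 7.29 against 7.42 and 7.35. Line differences of 0.05, 0.09 and 0.11 were not called (limma adjusted p = 0.662, 0.343 and 0.329), and only in RU486 did the arrays not overlap. GGPS1, which makes geranylgeranyl pyrophosphate for protein prenylation, was lower in vehicle (-0.27 ± 0.09, limma adjusted p = 0.0239) and not called with dexamethasone (-0.05) or RU486 (-0.22). Its vehicle call was lost without array A of control cells (-0.19, limma adjusted p = 0.138) or array B of GRα cells (-0.21, 0.0957). It was also lost with array weights (-0.21, limma adjusted p = 0.0549) and in a fit of only the groups compared (-0.27, 0.0718). With RU486, GGPS1 was called lower with array weights (limma adjusted p = 0.0489) and in a fit of only the groups compared (0.0328).

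The squalene and sterol steps had the largest differences, with 8 of 10 measured genes lower and 1 higher under each treatment, and medians of -0.786, -0.779 and -0.762. LSS encodes lanosterol synthase, which closes the rings of the sterol. Its log2 values were 10.04, 10.08 and 9.94 in control vehicle arrays and 8.32, 8.37 and 8.37 in GRα vehicle arrays. Dexamethasone arrays read 9.94, 10.03 and 10.05 against 8.37, 8.43 and 8.41, and RU486 arrays 9.94, 9.80 and 10 against 8.15 and 8.25. All 8 GRα arrays lay far below all 9 control arrays. LSS was 3.17-fold lower in vehicle (-1.67 ± 0.07, limma adjusted p = 3.98e-12), 3.04-fold with dexamethasone and 3.27-fold with RU486.

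DHCR7, the last step to cholesterol in the Kandutsch-Russell route, read 10.70, 10.76 and 10.65 in control vehicle arrays and 9.56, 9.98 and 9.65 in GRα vehicle arrays. With dexamethasone it read 10.68, 10.73 and 10.82 against 9.85, 9.86 and 9.78, and with RU486 10.64, 10.42 and 10.71 against 9.61 and 9.69. The lines did not overlap, and GRα vehicle array B was the highest of its line. DHCR7 was 1.96-fold lower in vehicle (-0.97 ± 0.09, limma adjusted p = 3.51e-07). HSD17B7, a ketoreductase in the removal of sterol methyl groups, read 8.65, 8.66 and 8.70 in control vehicle arrays against 7.49, 7.72 and 7.61 in GRα cells. Dexamethasone arrays read 8.73, 8.68 and 8.77 against 7.76, 8.0 and 7.71, and RU486 arrays 8.63, 8.68 and 8.75 against 7.69 and 7.49. The difference in vehicle was -1.07 ± 0.08, or 2.1-fold lower (limma adjusted p = 1.49e-08), and GRα dexamethasone array B, at 8.0, was its highest GRα value.

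NSDHL and MSMO1, which act with HSD17B7 on the sterol methyl groups, were lower by -0.90 ± 0.06 and -0.82 ± 0.08 in vehicle. CYP51A1, the lanosterol demethylase gene, was lower by -0.75 in vehicle, -0.93 with dexamethasone and -0.83 with RU486, and a separate probe set of the same gene gave -0.64, -0.97 and -0.84. SC5D, a sterol desaturase gene, was lower by -0.37, -0.53 and -0.45, the last not called without GRα RU486 array B (-0.34, limma adjusted p = 0.0587). TM7SF2, a sterol reductase gene, was called lower in vehicle (-0.29) and RU486 (-0.30) and not with dexamethasone (-0.15, limma adjusted p = 0.147), and its RU486 call was lost without GRα array B (0.0596) or C (0.0612). EBP, the sterol isomerase gene, differed by -0.28 in vehicle, -0.38 with dexamethasone and -0.29 with RU486 (limma adjusted p = 0.0648, 0.0134 and 0.102). Its call with dexamethasone was lost without control array C (-0.33, limma adjusted p = 0.0614) or GRα array A (-0.32, 0.064). Without GRα vehicle array B, EBP was called in vehicle (-0.45, limma adjusted p = 0.000592) and with RU486 (-0.29, 0.0148). In vehicle it was also called without the dimmest 25% of probe sets (limma adjusted p = 0.049), with a trended, robust prior (0.0479) or with array weights (0.0038). With RU486 it was also called with array weights (limma adjusted p = 0.0212) or in a fit of only the groups compared (0.0365).

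SQLE, the squalene epoxidase gene and a rate-limiting enzyme of the sterol steps, went the other way. It read 9.59, 9.54 and 9.59 in control vehicle arrays and 9.82, 9.84 and 9.85 in GRα vehicle arrays. With dexamethasone the values were 9.69, 9.44 and 9.50 against 9.74, 9.71 and 9.70, and with RU486 9.60, 9.59 and 9.56 against 9.79 and 9.88. GRα arrays were above control arrays under each treatment, by the smallest margin with dexamethasone. SQLE was 1.2-fold higher in vehicle (0.26 ± 0.06, limma adjusted p = 0.0041), 1.13-fold with dexamethasone (0.17 ± 0.06, 0.0488) and 1.19-fold with RU486 (0.25 ± 0.07, 0.0117). The dexamethasone call was lost without control array B or C or any of the 3 GRα dexamethasone arrays (differences of 0.12 to 0.18, adjusted p of 0.0794 to 0.231), and the RU486 call without GRα array C (0.21, limma adjusted p = 0.136).

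**Figure D2:**
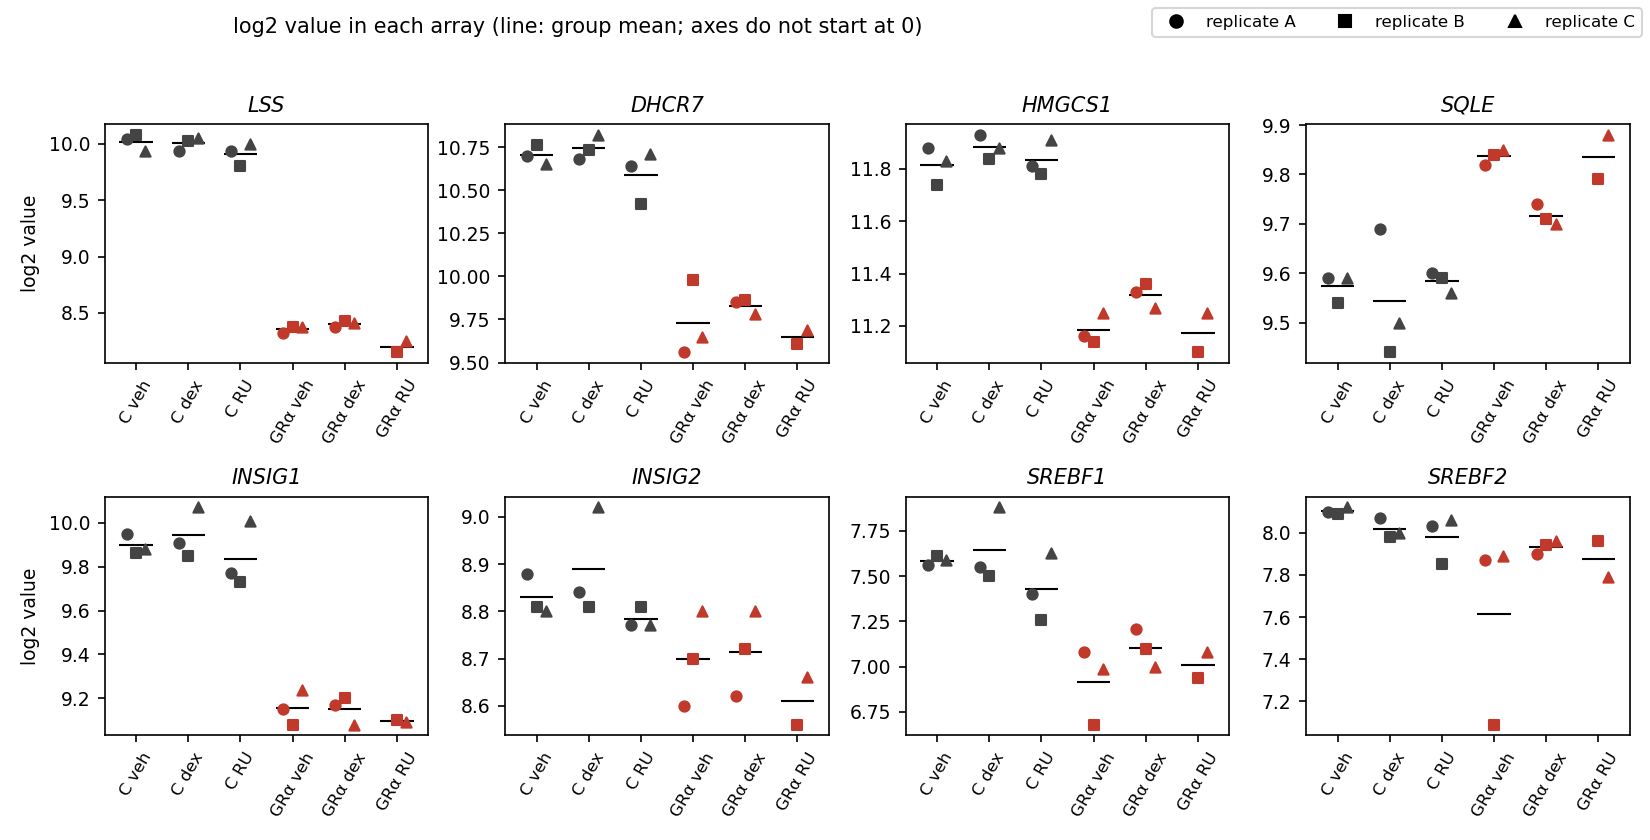
Log2 value of 8 genes in each of the 17 arrays, by group (C is control cells, veh vehicle, dex dexamethasone, RU RU486), with replicates A, B and C as circles, squares and triangles and group means as lines. LSS, DHCR7, HMGCS1 and INSIG1 separate the lines with no overlap, SQLE is higher in GRα cells within each treatment, and SREBF2 has 1 low point, 7.09, in GRα vehicle array B.

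Of the 8 SREBP control genes, 4 were called lower in vehicle (17.9% of all probe sets) and 2 with dexamethasone and with RU486 (17% and 15.6%), with medians of -0.188, -0.137 and -0.136. INSIG1, which retains SCAP and is itself a target of SREBPs, read 9.95, 9.86 and 9.88 in control vehicle arrays and 9.15, 9.08 and 9.24 in GRα vehicle arrays. With dexamethasone it read 9.91, 9.85 and 10.07 against 9.17, 9.20 and 9.08, and with RU486 9.77, 9.73 and 10.01 against 9.10 and 9.09. It was 1.67-fold lower in vehicle (-0.74 ± 0.08, limma adjusted p = 1.01e-06), and no arrays of the lines overlapped. INSIG2, which has the same retention role, read 8.88, 8.81 and 8.80 against 8.60, 8.70 and 8.80 in vehicle. Its dexamethasone values were 8.84, 8.81 and 9.02 against 8.62, 8.72 and 8.80, and its RU486 values 8.77, 8.81 and 8.77 against 8.56 and 8.66. INSIG2 differed by -0.13, -0.18 and -0.18 and was not called (limma adjusted p = 0.186, 0.0674 and 0.122). With dexamethasone it was called when GRα array C was left out (-0.22, limma adjusted p = 0.0442). It was also called there without the dimmest 25% of probe sets (0.048), with a trended, robust prior (0.0388) or with array weights (0.0485). The difference between the 2 INSIG genes was not tested.

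SREBF1 read 7.56, 7.61 and 7.59 in control vehicle arrays and 7.08, 6.68 and 6.99 in GRα vehicle arrays. Dexamethasone arrays read 7.55, 7.50 and 7.88 against 7.21, 7.10 and 7.0, and RU486 arrays 7.40, 7.26 and 7.63 against 6.94 and 7.08. The lines did not overlap within a treatment, and SREBF1 was lower by -0.67 ± 0.11 in vehicle, -0.54 ± 0.11 with dexamethasone and -0.42 ± 0.13 with RU486 (limma adjusted p = 0.000188, 0.00135 and 0.0197). The RU486 call was lost without control array C (adjusted p = 0.0935) or GRα array B (0.153).

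SREBF2, whose product is the main activator of the cholesterol genes, read 8.10, 8.09 and 8.12 in control vehicle arrays and 7.87, 7.09 and 7.89 in GRα vehicle arrays. Dexamethasone arrays read 8.07, 7.98 and 8.0 against 7.90, 7.94 and 7.96, and RU486 arrays 8.03, 7.85 and 8.06 against 7.96 and 7.79. The 7.09 of GRα vehicle array B was far below every other array. SREBF2 was called lower in vehicle (-0.48 ± 0.14, limma adjusted p = 0.0158) and not with dexamethasone (-0.08 ± 0.14) or RU486 (-0.10 ± 0.16). Without array B the vehicle difference was -0.22, still called (limma adjusted p = 0.0231), and in a fit of only the groups compared the call was lost (-0.48, adjusted p = 0.0871).

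SCAP, the escort protein gene, was called lower in vehicle (-0.24 ± 0.06, limma adjusted p = 0.00461), but not in a fit of only the groups compared (0.0575). It differed by -0.16 with dexamethasone and -0.14 with RU486, not called, though the former was called without GRα vehicle array B (limma adjusted p = 0.0179). The dexamethasone difference was also called without the dimmest 25% of probe sets (0.0406), with a trended, robust prior (0.0318) or with array weights (0.0079). MBTPS1 differed by 0.01, 0.12 and 0.05 and MBTPS2 by -0.08, -0.12 and -0.14, none of them called. A probe set shared by MBTPS2 and YY2 gave -0.20, 0.05 and -0.05, also not called. ERLIN1, an endoplasmic reticulum membrane protein that binds the SREBP complex, read 9.73, 9.64 and 9.73 in control vehicle arrays and 9.80, 9.88 and 9.83 in GRα vehicle arrays. With dexamethasone it read 9.78, 9.71 and 9.68 against 9.81, 9.75 and 9.80, and with RU486 9.73, 9.73 and 9.72 against 9.78 and 9.82. Its vehicle and RU486 arrays did not overlap, with differences of 0.14 ± 0.05 and 0.07 ± 0.06 that were not called (limma adjusted p = 0.059 and 0.424).

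Of the remaining genes, STARD4, a soluble sterol carrier and known SREBP target, was lower by -0.61 ± 0.08 in vehicle, -0.74 with dexamethasone and -0.72 with RU486, all called. MYLIP, a ubiquitin ligase that sends lipoprotein receptors for degradation, was called lower in vehicle (-0.36, limma adjusted p = 0.00139) and RU486 (-0.33, 0.00737), but not with dexamethasone (-0.19, 0.0742). Its RU486 call was lost without GRα array B (-0.30, limma adjusted p = 0.0747), and with dexamethasone it was called without control array B (-0.24, 0.0412) or GRα vehicle array B (-0.19, 0.0392).

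The other questions are whether 6 h of either drug changed these genes within a line. Dexamethasone changed none of the 28 by limma at an adjusted p under 0.05, in GRα cells (1.78% of all probe sets called) or in control cells (0.226%). At an unadjusted p under 0.05 there were 2 genes in GRα cells and 0 in control cells. HSD17B7 had a dexamethasone difference of 0.22 ± 0.08 in GRα cells (limma adjusted p = 0.2) and SREBF2 one of 0.32 ± 0.14 (adjusted p = 0.303). The arrays of HSD17B7 overlapped, from 7.71 to 8.0 against 7.49 to 7.72. Those of SREBF2 did not, but without GRα vehicle array B its difference was 0.05 (limma adjusted p = 0.829). The median over the 28 genes was 0.048 in GRα cells and 0.006 in control cells, against -0.011 and -0.010 for all probe sets.

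The intervals were narrow enough to bound these differences. In GRα cells the 95% interval of the dexamethasone difference lay within 0.5 log2 units of 0 for 27 of the 28 genes, the exception being SREBF2 with an upper bound of 0.62. In control cells it did so for all 28. For LSS the interval was -0.09 to 0.19 in GRα cells, for INSIG1 -0.17 to 0.16 and for HMGCS1 0.00 to 0.27. HMGCS1 was the other gene whose dexamethasone arrays all lay above its vehicle arrays in GRα cells (0.13 ± 0.06, limma adjusted p = 0.337), and SQLE the only one whose arrays all lay below (-0.12 ± 0.06, 0.383). These 2 higher and 1 lower of 28 compare with 6.84% and 8.98% of all probe sets. In control cells 0 were separate above and 3 below (MYLIP, SREBF2 and SCAP), against 5.02% and 7.44%.

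RU486 changed 0 of the 28 genes in either line by limma, as it did 0% of all probe sets in each. Before adjustment, too, 0 of them had p under 0.05. In GRα cells the smallest p belonged to LSS (-0.15 ± 0.07, limma adjusted p = 0.583). In control cells it belonged to MVK (limma adjusted p = 0.999). Medians over the 28 genes were -0.035 in GRα and -0.053 in control cells, against -0.006 and 0.001 for all probe sets. Intervals lay within 0.5 log2 units of 0 for 27 genes in GRα cells, again all but SREBF2, and for 28 in control cells. RU486 arrays lay wholly above vehicle arrays for 1 gene and below for 2 in GRα cells (8.68% and 11.8% of all probe sets), and for 0 and 5 in control cells (5.24% and 6.96%). The dexamethasone and RU486 differences of a line share its vehicle arrays.

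**Figure D3:**
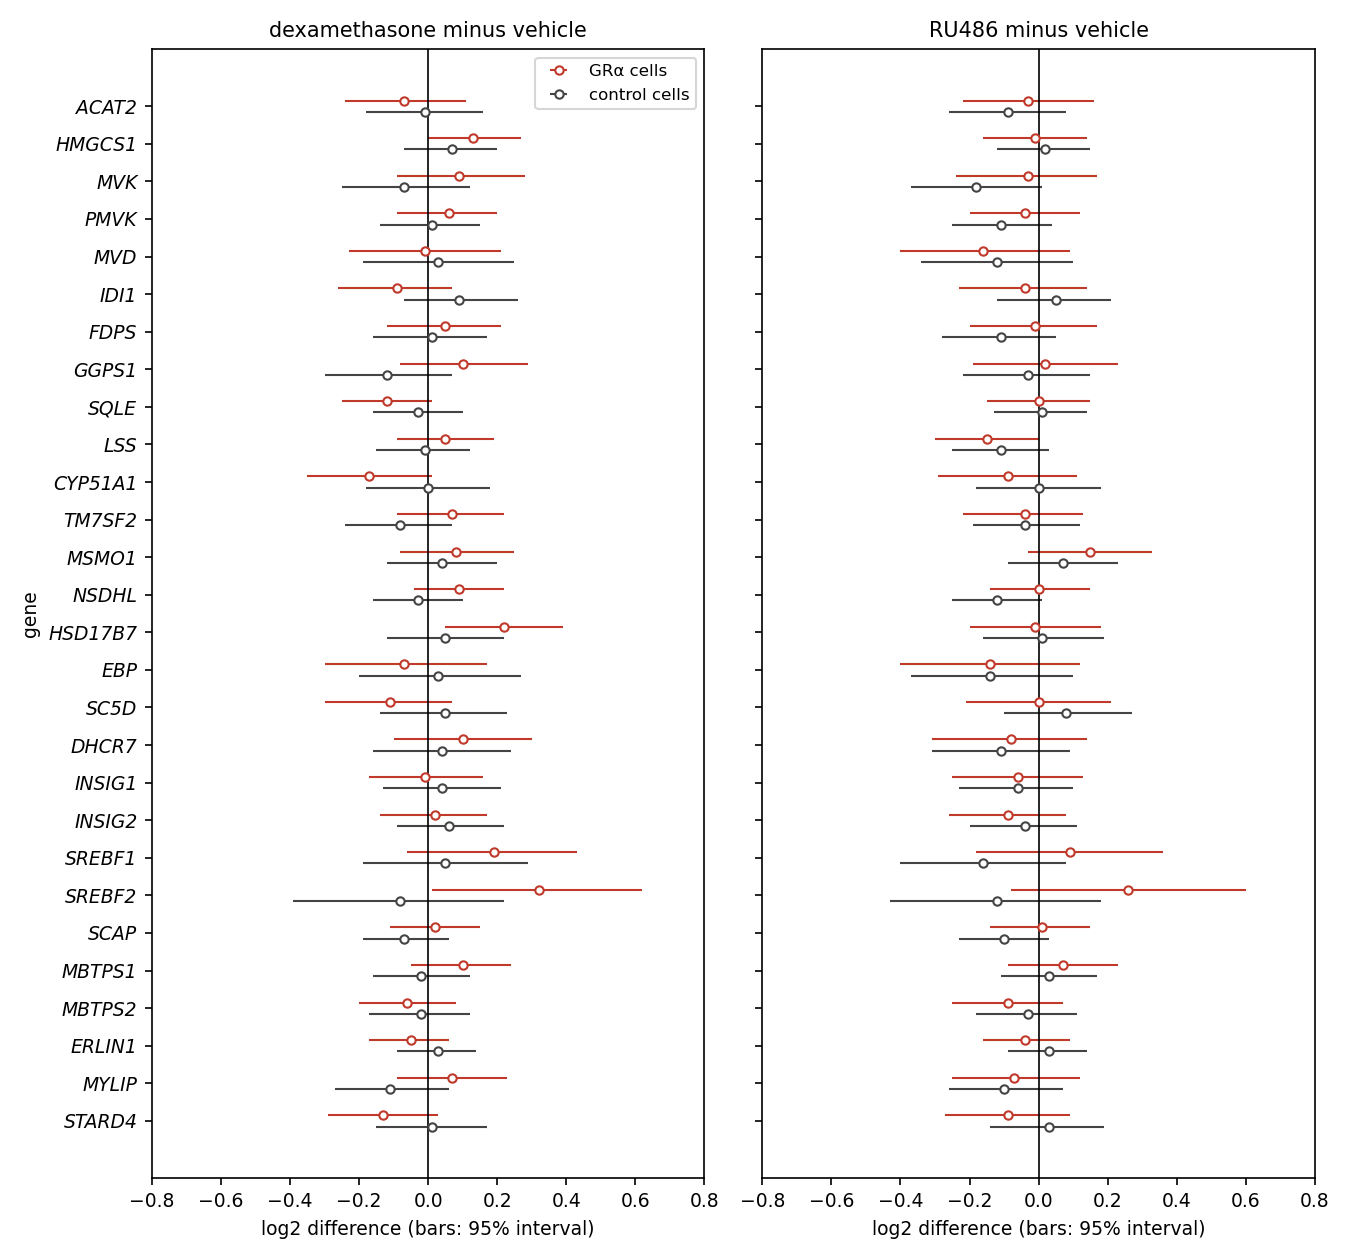
Log2 difference from vehicle for each of the 28 genes with dexamethasone (left panel) and RU486 (right panel) in GRα and control cells; points are fitted differences and bars 95% intervals. All points are open because none was called, and the interval of SREBF2 in GRα cells is the widest, reaching 0.62 with dexamethasone and 0.60 with RU486.

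The agonist and the antagonist, both at 100 nM for 6 h, were also compared with each other; the vehicle arrays entered only through the shared estimate of the spread. Of the 28 genes, 0 were called in GRα cells (0.754% of all probe sets) and 0 in control cells (0.321%) by limma. In GRα cells 2 genes had an unadjusted p under 0.05: LSS was 0.20 ± 0.07 higher with dexamethasone than with RU486 (limma adjusted p = 0.388) and HSD17B7 0.23 ± 0.09 higher (0.42). LSS read 8.37, 8.43 and 8.41 with dexamethasone and 8.15 and 8.25 with RU486, with no overlap. In all, 7 genes were separate above and 2 below in GRα cells, where 12.7% and 13.8% of all probe sets were. In control cells 0 genes had an unadjusted p under 0.05, and 1 gene was separate above and 0 below (6.45% and 7.84%). Every 95% interval of the difference between the drugs lay within 0.5 log2 units of 0 for the 28 genes, from -0.33 to 0.42 in GRα cells and from -0.27 to 0.45 in control cells.

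The test of whether the lines responded differently called 0 of the 28 genes for dexamethasone (0.0613% of all probe sets) and 0 for RU486 (0%), by limma, and before adjustment 0 had p under 0.05 in both. SREBF2 had the smallest p in each (limma adjusted p = 0.705 for dexamethasone and 0.999 for RU486). Intervals of the difference between lines were within 0.5 log2 units of 0 for 27 genes with dexamethasone and 26 with RU486, the exceptions being SREBF2 in both and SREBF1 with RU486.

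GRα vehicle array B enters every vehicle comparison of that line. It lay outside the range of arrays A and C for 26 of the 28 genes, 17 above and 9 below, as it did for 79.2% of all probe sets. It was over 0.3 log2 units from the mean of A and C for 5 genes: SREBF2 (-0.79), EBP (0.50), DHCR7 (0.38), CYP51A1 (0.37) and SREBF1 (-0.35). Of all probe sets 19% were that far away. Without it the vehicle counts were again 21 lower and 1 higher, and 19 genes were lower with dexamethasone and 19 with RU486.

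**Figure D4:**
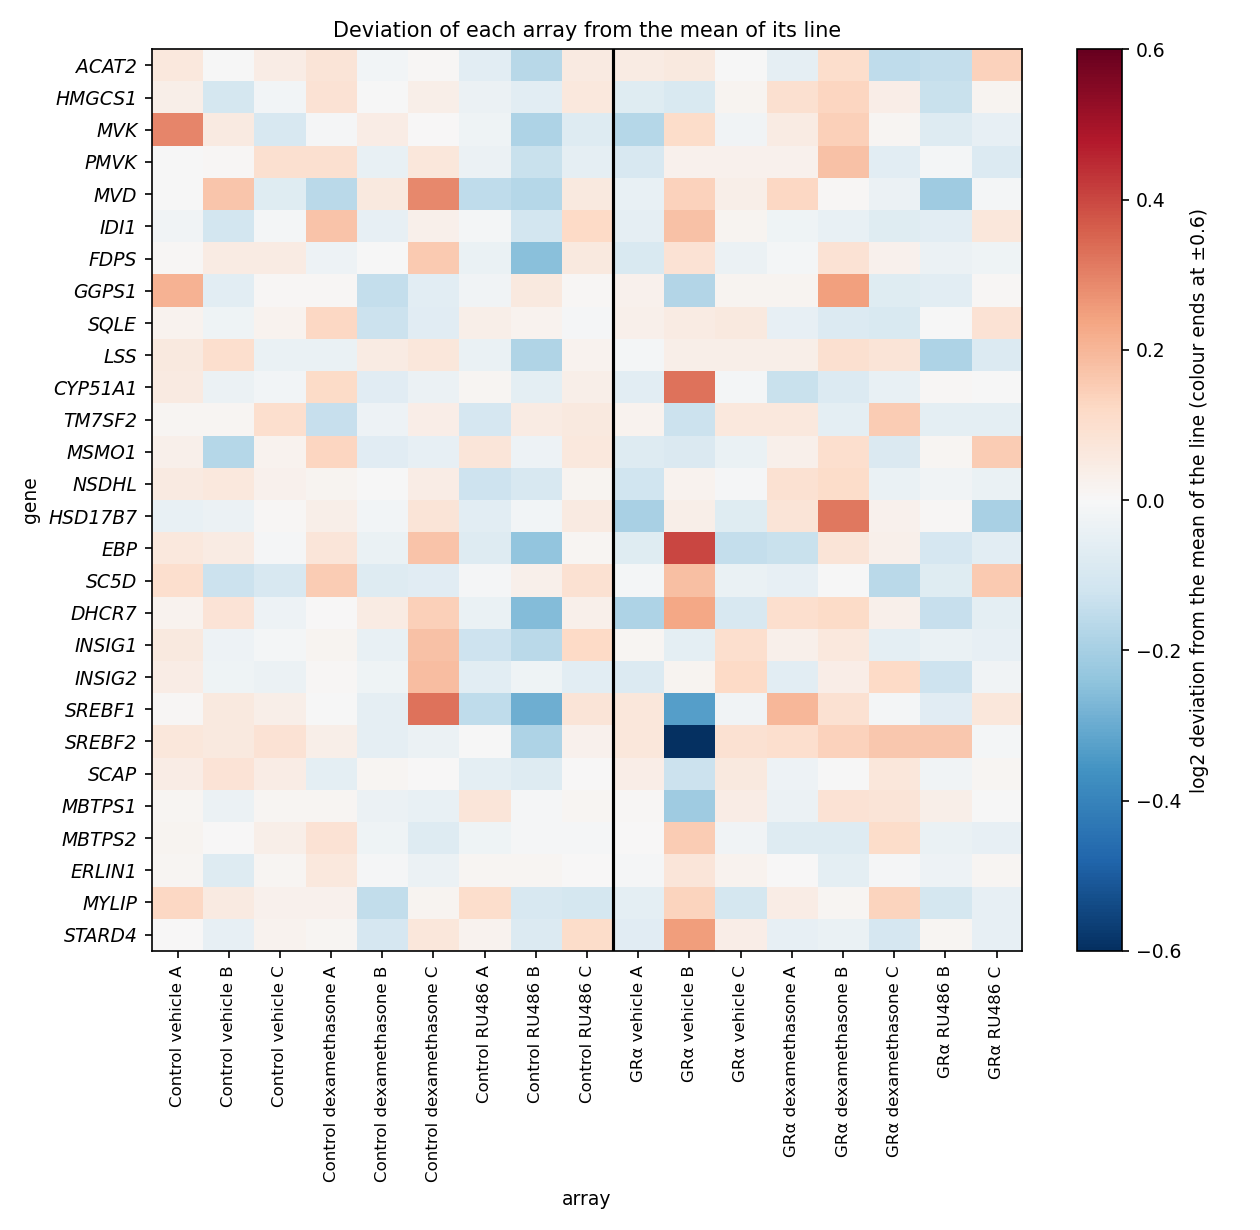
Deviation of each array (columns) from the mean of its own line, in log2 units, for the 28 genes (rows), with red above and blue below; the black line parts control from GRα arrays. The strongest colours are in GRα vehicle array B, blue for SREBF2 and SREBF1 and red for EBP, and no treatment forms a block of 1 colour.

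Other genes of the pathway were read from 6 further lists, whose counts in vehicle stand beside 17.9% of all probe sets called lower and 14.9% called higher. Of 3 measured genes of other sterol synthesis steps, 2 were lower in GRα cells in vehicle and all 3 with each drug. LBR, a nuclear membrane protein that is also a sterol reductase, was lower by -0.68 ± 0.06 (limma adjusted p = 1.67e-07) and ERG28, a scaffold of the sterol enzymes, by -0.35 ± 0.07 (0.000532). Among 11 fatty acid genes driven by SREBPs, 4 were lower and 0 higher in vehicle, with a median of -0.127. SCD, the stearoyl-CoA desaturase gene, was lower by -1.73 ± 0.13, 3.32-fold (limma adjusted p = 1.61e-08), and FASN, the fatty acid synthase gene, by -0.47 ± 0.10 (0.00162). Among 15 genes of cholesterol uptake, storage and efflux, 8 were lower and 2 higher, with a median of -0.202. SCARB1, the receptor that takes cholesteryl ester from high-density lipoprotein, was 2.02-fold lower (-1.01 ± 0.06, limma adjusted p = 9.68e-10), and LIPE, the hormone-sensitive lipase gene, 1.54-fold lower (-0.62 ± 0.07, 1.32e-06). CAV1, the caveolin gene, was higher by 0.55 ± 0.15 and SOAT1, which esterifies cholesterol for storage, by 0.32 ± 0.07 (limma adjusted p = 0.0103 and 0.00166).

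The other 3 lists had medians in vehicle near that of all probe sets, 0.009, and called counts of at most 2 genes in a direction. Of 9 sterol sensing and degradation partners, with a median of 0.010, VCP (0.53) and UFD1 (0.28), which extract proteins from the endoplasmic reticulum, were higher, and TMEM97, a sterol-binding membrane protein, was lower (-0.46). Another 8 genes, of SREBP cofactors, transport and turnover, had a median of 0.005. Of these, SEC24D (0.29), a coat protein of transport vesicles, and SP1 (0.22), a transcription factor, were higher and 0 were lower. Of 14 genes of the non-sterol isoprenoid branch, with a median of 0.011, FNTB, a farnesyltransferase subunit gene read from a probe set shared with CHURC1-FNTB, was higher (1.17 ± 0.11, limma adjusted p = 2.05e-07). PDSS1 (-0.46), which makes the side chain of ubiquinone, and DHDDS (-0.17), of dolichol synthesis, were lower.

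**Figure D5:**
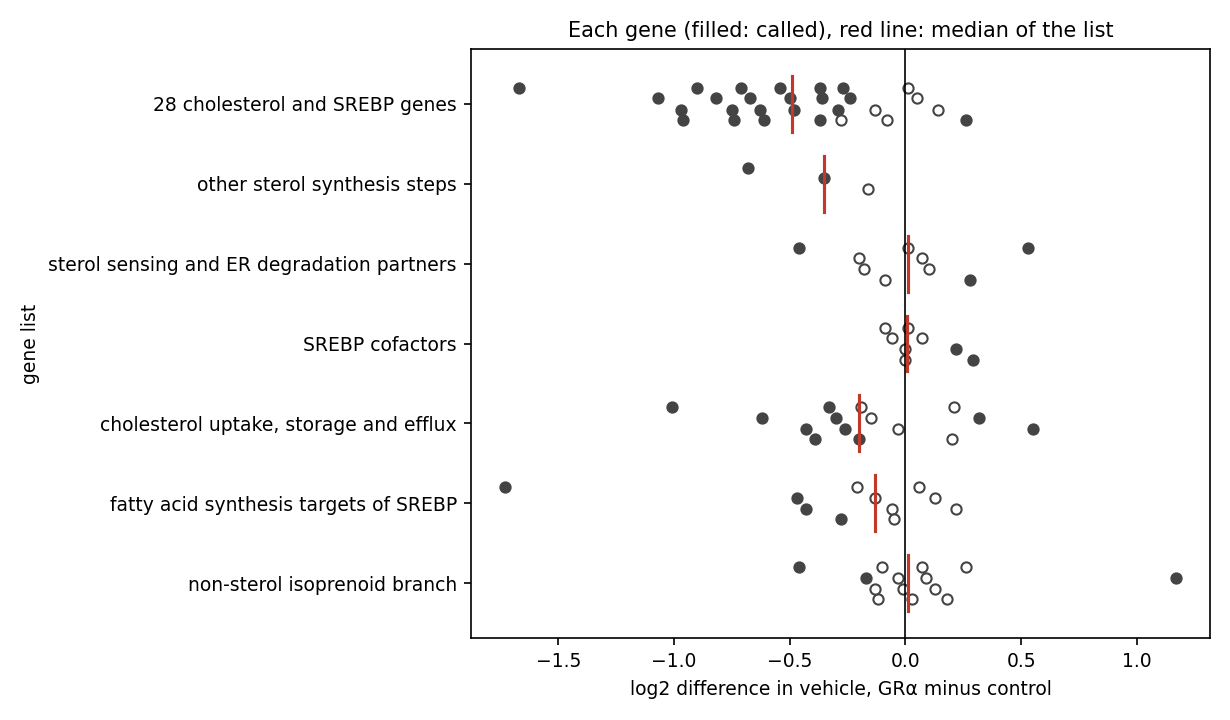
Log2 difference in vehicle, GRα minus control cells, for each measured gene (points, filled where called) of the 28 cholesterol and SREBP genes and of 6 further lists; red lines are list medians. The 28 genes have the lowest median, -0.490, followed by other sterol synthesis steps at -0.346. Sensing partners, the list labelled SREBP cofactors (which also holds transport and turnover genes) and the non-sterol branch have medians near 0. All the lists were chosen with earlier results of these data known.

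Within these lists, 3 genes changed with a drug, 2 of the 11 fatty acid genes and 1 of the 14 of the non-sterol branch. Of all probe sets, 1.78% were called with dexamethasone in GRα cells and 0.754% for dexamethasone against RU486 there. Dexamethasone raised the fatty acid desaturase genes FADS2 (from 8.70 ± 0.07 to 9.42 ± 0.14, SD, n = 3; 0.73 ± 0.11, limma adjusted p = 0.00154) and FADS1 (0.48 ± 0.09, 0.00898) in GRα cells. The same comparison lowered FNTB (-0.49 ± 0.11, limma adjusted p = 0.0284). In control cells the dexamethasone differences were 0.18 for FADS2, 0.30 for FADS1 and -0.11 for FNTB, not called. A different response of the 2 lines to dexamethasone was called by limma for 0 of the 11 and 0 of the 14 genes (0.0613% of all probe sets). The calls in GRα cells alone therefore do not show that the lines responded differently. FADS2 was also higher with dexamethasone than with RU486 in GRα cells (0.64 ± 0.13, limma adjusted p = 0.0174).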

How the data were processed

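The deposited table holds log2 expression values from the authors' RMA summary of 17 arrays. RMA and limma are named in the submitters' processing notes; for neither are a version or settings given in the sources used here, nor is a genome build. It has 29153 probe sets, and values run from 2.07 to 14.15. GEO's platform annotation gave 19460 probe sets 1 symbol, 1754 several and 7939 none, and 19429 of those with 1 symbol matched RefSeq by Entrez number. The column of 1 array without values was not used.

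One limma fit (limma 3.58.1, R 4.3.3) with a mean for each of the 6 groups covered all 21214 probe sets with a symbol, with 11 residual degrees of freedom and 5.67 from the prior. Two-sided tests were adjusted by Benjamini-Hochberg over all of them and called under 0.05. The fit was tested on simulated data. A gene was read from its 1-symbol probe set with the highest mean, otherwise from a shared one. All measured genes of the list are named; array values are given for 8 chosen genes and the 3 with the largest vehicle difference in each direction. From the further lists, the 2 largest called genes in each direction in vehicle and all called with a drug are named. Members and lists were chosen with earlier results of these data known. Alternatives were other probe sets, filters, normalization, weights, a replicate block and leaving out each array.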

Additional observations from a re-analysis of the deposited data

Results flagged for a closer look

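SREBF2 had dexamethasone differences of opposite sign in the lines, with arrays that did not overlap in either: 0.32 in GRα cells and -0.08 in control cells. The difference between them was 0.40 (limma interaction test, adjusted p = 0.705), and without GRα vehicle array B it was 0.14 (limma adjusted p = 0.869).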

How the results depend on the processing

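The counts of genes called lower between the lines stayed within 1.5 times the reported ones under every alternative run, and leaving out 1 array at a time gave 20 to 21 in vehicle, 16 to 19 with dexamethasone and 13 to 19 with RU486. The counts of 0 for the drugs and for the tests between lines stayed at 0 in all of them. In vehicle the genes called higher became 2 with quantile normalization again, without the dimmest 25% of probe sets and with a trended, robust prior, ERLIN1 being added (limma adjusted p = 0.0184, 0.0385 and 0.0271). With dexamethasone the 1 gene called higher, SQLE, became 0 over all probe sets of the table (adjusted p = 0.0649), in a fit of only the groups compared (0.124), with the replicate block (0.0526) and at an adjusted p under 0.01. With RU486 it became 0 at an adjusted p under 0.01. Leaving out 1 array gave 0 to 1 genes called higher with dexamethasone and with RU486. The cause of these changes was not tested, beyond the stricter threshold itself. Calls that held in all alternatives, the stricter threshold included, and without each array were 19 of 22 in vehicle, 16 of 18 with dexamethasone and 13 of 19 with RU486. Where a GRα RU486 array was left out, the lone array was assumed to vary like those of the other groups.

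With replicate letters as a block, the counts called lower were 21, 17 and 18. Deviations of same-letter pairs correlated with a median of -0.01 (-0.26 to 0.32), and 4 of 40 pairs were over 0.1. Different-letter pairs had a median of 0.02 (-0.36 to 0.27), and 15 of 80 were over 0.1. With 2 or 3 arrays in a group, these correlations cannot show whether arrays of the same letter were handled together.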
